A study of Mus musculus with 8 samples.

Results

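Apoe, Fabp4 and Cybb are 3 genes associated with macrophages that were measured in T cell samples sorted from a mixed lymphocyte reaction, in which splenocytes of one mouse strain are stimulated in culture by those of another. They were found by exact gene symbol in a list deposited by the authors, whose probe sets named 289 genes, and where a gene had several listed probe sets their mean was used. The 3 genes had 5 probe sets (1 for Apoe, 1 for Fabp4 and 3 for Cybb) of the 45037 on the array that are not controls. The 4 groups were CD4 cells under costimulation blockade, untreated CD4 cells, CD8 cells under blockade and untreated CD8 cells, each with 2 Affymetrix Mouse430_2 arrays. Blockade meant 50 µg each of anti-CD40L, anti-LFA-1 and CTLA4-Ig for 5 days, and the untreated cultures ran for 5 days with no antibody. In every group the responders were CFSE-labelled C57BL/6 splenocytes (200000 per well) and the stimulators were FVB/N splenocytes irradiated with 30 Gy (800000 per well). Cells positive for CFSE and for CD4 or CD8 were sorted, and RNA came from 300000 of them; the protocol label calls the staining antibodies anti-human although the cells were murine. Per the labels there were 4 mice in a group, but nothing ties the arrays of a group to separate cultures, so every p-value below reflects only the spread between arrays, which may be technical.

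Apoe encodes apolipoprotein E, a secreted lipid carrier that macrophages use to export cholesterol and that is taken up through receptors of the LDL receptor family. Fabp4 encodes a cytosolic fatty acid chaperone of adipocytes and macrophages, and Cybb encodes the membrane-bound catalytic subunit of the phagocyte NADPH oxidase, which makes superoxide. Macrophages are the cells in which the 3 are usually named together, but B cells and neutrophils express Cybb too.

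Each deposited value was relative to the median of its probe set across the 8 arrays. The values were read as log2; the sources used here do not give the base. They show how a gene differed between arrays and say nothing of how strongly it was expressed. Because the list was selected by its authors on these same arrays, and every listed probe set had a mean over the 4 blockade arrays at least 1.00 log2 units away from its mean over the 4 untreated ones (the nearest unlisted probe set under that value had 0.9986), the blockade differences of the 3 genes are given as a description with no test. The 5 probe sets had differences of 1.17 to 2.56. Of the 289 named genes, 81 had a higher mean under blockade, and by that difference Apoe stood at rank 2, Fabp4 at rank 10 and Cybb at rank 52. In sorted but bulk samples, fewer cells of a type and less RNA per cell cannot be told apart.

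The label of the group as macrophage genes could not be checked with defining markers. Of 52 further macrophage genes 3 were named, and their blockade differences, given below, lay in both directions. None of 12 defining macrophage markers, Adgre1, Csf1r, Cd68 and C1qa among them, had a named probe set, and none of 19 T cell markers did, Cd4 and Cd8a included. Any probe sets of theirs were measured without a name. Control probe sets stood apart for CD8 blockade replicate 1, whose array had a median of 0.91 over the hybridization controls and 0.79 over the poly-A controls, against medians of -0.23 to 0.12 and -0.44 to 0.19 on the other 7 arrays, where both lowest values were those of CD4 untreated replicate 2.

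Apoe showed the widest separation of the 3. In CD4 cells its log2 value was 1.27 and 1.13 on the blockade arrays, against -1.41 and -1.06 on the untreated arrays. Its values in CD8 cells were 1.06 and 1.11 on the blockade arrays, against -1.69 and -1.51 on the untreated arrays. The 4 blockade arrays lay within a narrow band and the untreated arrays all lay far below it, with a gap of 2.11 between the lowest blockade and the highest untreated array. The mean was 1.20 ± 0.10 in CD4 cells under blockade and -1.23 ± 0.25 in untreated CD4 cells (SD, n = 2 each), a difference of 2.43 ± 0.13 (SE). In CD8 cells it was 1.08 ± 0.041 under blockade and -1.60 ± 0.12 without it (SD, n = 2 each), a difference of 2.69 ± 0.13 (SE). Here and below, the SE of a difference is limma's moderated one. It combines the gene's spread within all 4 groups together (4 degrees of freedom) with a spread estimated over all features (4.48 prior degrees of freedom). It does not use only the SDs of the groups compared, and so is the same in both subsets. Ordered from the largest rise to the largest fall under blockade, Apoe stood at rank 3 of 44951 features in CD4 cells and at rank 2 in CD8 cells. By absolute size, with falls counted too, its rank was 81 in CD4 cells and 43 in CD8 cells.

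Fabp4 was also higher on every blockade array, but its replicates lay far apart. In CD4 cells its log2 value was 1.58 and 1.22 under blockade, against -0.27 and -0.94 in untreated cells. The CD8 values were 0.27 and 1.71 under blockade, against -0.82 and -1.11 in untreated cells. CD8 blockade replicate 1, the array with the high control probe sets, was the lowest blockade array and replicate 2 the highest of all 8. The blockade and untreated arrays did not overlap, yet the gap between them was 0.54, the smallest of the 3 genes. The mean was 1.40 ± 0.25 in CD4 cells under blockade and -0.60 ± 0.47 in untreated CD4 cells (SD, n = 2 each), a difference of 2.00 ± 0.41 (SE). The CD8 mean was 0.99 ± 1.02 under blockade and -0.96 ± 0.20 without it (SD, n = 2 each), a difference of 1.95 ± 0.41 (SE). Without moderation, the SE of 0.41 would equal the pooled SD of Fabp4 within the 4 groups, which was 0.58. Fitted on the arrays of each subset alone, the SE of Fabp4 was 0.44 in CD8 cells and 0.23 in CD4 cells. That CD8 difference was 2.67 without CD8 blockade replicate 1 and 1.24 without CD8 blockade replicate 2.

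The replicate gap of Fabp4 in CD8 cells under blockade was among the widest on the arrays. At 1.44 it was reached or passed by 20 of 44951 features (0.0445%), Fabp4 included, where the median gap of all features between these 2 arrays was 0.14. Only 3 of the 289 named genes had a gap this wide, Fabp4, Gpnmb and S100a9; S100a9 was named after its value was seen. Replicate 1 minus replicate 2 was -1.44 for Fabp4 and -1.56 for Gpnmb (a transmembrane glycoprotein of lipid-laden macrophages), so both were lower on replicate 1. It was 1.58 for S100a9 (a calprotectin subunit of neutrophils), which was higher on replicate 1. On the same pair of arrays Apoe differed by 0.057 and Cybb by 0.19. In untreated CD8 cells, replicate 1 minus replicate 2 was 1.34 for Gpnmb, 0.82 for S100a9 and 0.29 for Fabp4, so Gpnmb varied widely there too. The part of the control probe set signal in the gap of Fabp4 under blockade was not tested.

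Cybb had the smallest blockade difference of the 3 and was measured by 3 probe sets. Averaged over them, its log2 value in CD4 cells was 0.87 and 0.62 under blockade, against -0.65 and -0.45 in untreated cells. CD8 cells had 0.63 and 0.44 under blockade, against -0.46 and -0.90 in untreated cells. Again no blockade array overlapped an untreated array, and the gap between the sets was 0.89. The mean was 0.75 ± 0.18 in CD4 cells under blockade and -0.55 ± 0.14 in untreated CD4 cells (SD, n = 2 each), a difference of 1.30 ± 0.16 (SE). The CD8 mean was 0.53 ± 0.14 under blockade and -0.68 ± 0.31 without it (SD, n = 2 each), a difference of 1.22 ± 0.16 (SE).

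The probe sets of Cybb gave like values. Probe set 1422978_at had a blockade difference of 1.31 in CD4 cells and 1.03 in CD8 cells. For 1436778_at these were 1.29 and 1.27, and for 1436779_at they were 1.28 and 1.35. In CD4 cells the 3 probe sets thus lay within a narrow range, while in CD8 cells 1422978_at was the lowest. On a single array the 3 values spanned between 0.020 (CD8 untreated replicate 1) and 0.37 (CD8 untreated replicate 2). On that last array 1436779_at stood at -1.08, 1436778_at at -0.93 and 1422978_at at -0.70. For each probe set the blockade arrays lay above the untreated arrays.

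**Figure D1:**
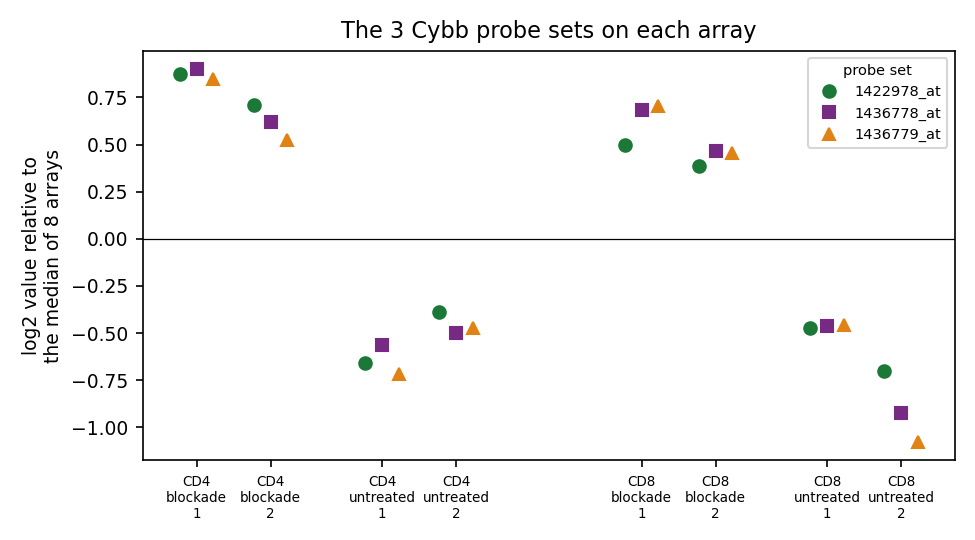
Log2 value of each of the 3 Cybb probe sets relative to its median over 8 arrays (vertical axis) on each array (horizontal axis, by group and replicate). Every point of the blockade arrays lies above 0 and every point of the untreated arrays below it, and the points spread most on CD8 untreated replicate 2.

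With all 4 blockade arrays above all 4 untreated arrays, the 3 genes were 3 of the 2657 features (5.91% of 44951) with that separation. Since the list was selected on this contrast, nothing is read from that count. The median of all features differed by 0.010 in CD4 cells and 0.018 in CD8 cells between blockade and untreated arrays. The median of the 3 genes was 2.00 in CD4 cells and 1.95 in CD8 cells, and that of all 289 named genes was -1.41 in CD4 cells and -1.22 in CD8 cells.

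**Figure D2:**
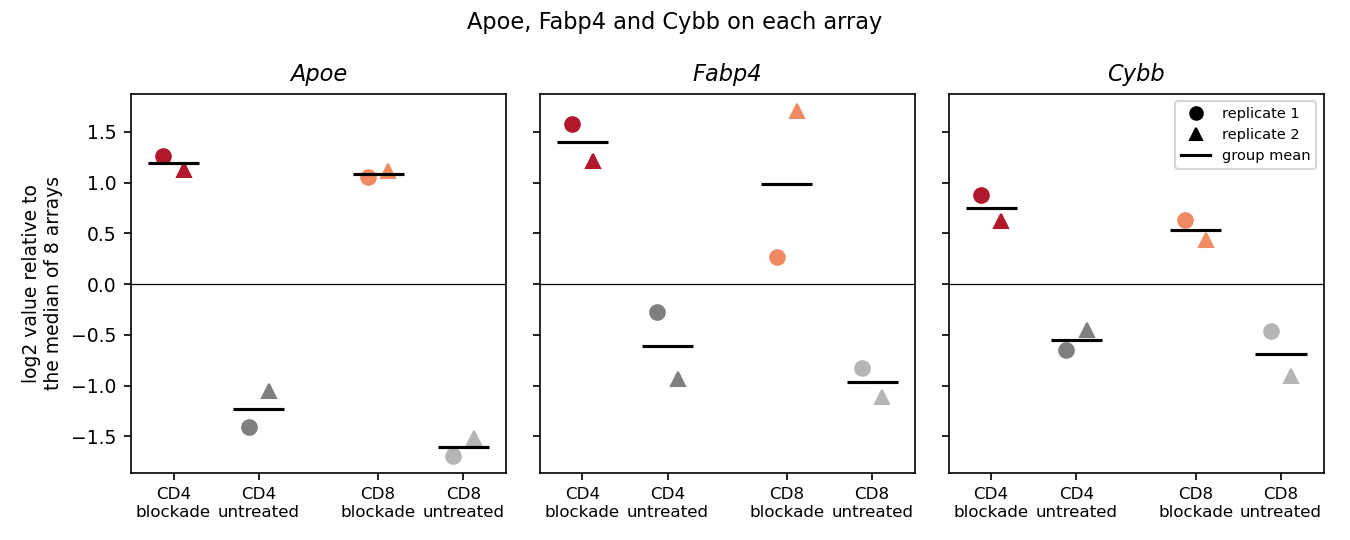
Log2 value relative to the median of 8 arrays (vertical axis) for Apoe, Fabp4 and Cybb in the 4 groups (horizontal axis); circles are replicate 1, triangles replicate 2, and lines the mean of a group of 2 arrays. All blockade arrays lie above 0 and all untreated arrays below it, and the Fabp4 replicates of CD8 cells under blockade, at 0.27 and 1.71, lie farthest apart.

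The promoter windows of RefSeq (GRCm38.p6), 250 bases before to 50 after a transcription start, are shown for the 2 of the 3 genes that matched the table, because these genes were higher on the same arrays. Apoe had 3 windows, of which the farthest upstream is printed, and Cybb had 1. Capitals mark every match, on either strand, to 6 motifs. These were the GC box (GGGCGG), the CCAAT box of promoters, the TATA box (spelled TATAAA), the core GAGGAA bound by the myeloid and B cell factor PU.1, the gamma-activated site TTCNNNGAA, and the core of the interferon-stimulated response element, which is GAAA repeated after any 2 bases.
Apoe, chr7:19699139-19699438, minus strand: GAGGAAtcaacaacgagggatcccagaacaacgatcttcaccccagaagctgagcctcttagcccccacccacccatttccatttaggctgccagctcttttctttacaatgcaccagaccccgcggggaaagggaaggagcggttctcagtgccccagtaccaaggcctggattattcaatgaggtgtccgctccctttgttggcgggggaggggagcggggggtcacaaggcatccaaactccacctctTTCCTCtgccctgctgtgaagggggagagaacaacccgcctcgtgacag
Cybb, chrX:9469275-9469574, minus strand: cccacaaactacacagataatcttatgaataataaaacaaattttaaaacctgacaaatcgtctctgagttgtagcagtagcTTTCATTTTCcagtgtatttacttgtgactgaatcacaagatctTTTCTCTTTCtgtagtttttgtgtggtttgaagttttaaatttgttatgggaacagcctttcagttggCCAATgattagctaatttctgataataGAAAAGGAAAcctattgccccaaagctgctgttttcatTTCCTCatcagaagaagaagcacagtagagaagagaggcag
The Apoe window held the PU.1 core at positions 1 and 252, counted from the window's 5′ end, and none of the other 5 motifs. The Cybb window held the core of the interferon-stimulated response element at positions 83, 127 and 222, CCAAT at position 195 and the PU.1 core at position 260, with no overlap between matches. Of 32851 promoter windows in the table, 28.3% held the PU.1 core, 37.4% CCAAT and 3.44% the interferon-stimulated element core. The GC box was in 35.7%, the TATA box in 13.6% and the gamma-activated site in 8.3%. The Cybb window had a GC content of 35.3% and the Apoe window one of 57.7%, where the median window had 52.7%. These matches describe letters in the windows and are not evidence of binding.

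The second comparison asked whether the 3 genes differed between CD8 and CD4 cells, which the selection of the list did not use as its contrast. The list's test may nevertheless have favoured genes with small differences between subsets, since the arrays of a treatment held both. All 3 genes had the same order of group means: CD4 cells under blockade were highest, then CD8 cells under blockade, untreated CD4 cells and untreated CD8 cells. Neither pair of neighbours of like treatment in that order passed limma's test for any of the 3 genes, in a family of 9 tests (3 genes, 3 contrasts) with p-values adjusted over all 44951 features of a contrast.

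Without blockade, Apoe was -1.69 and -1.51 in CD8 cells, against -1.41 and -1.06 in CD4 cells, so that both CD8 arrays lay below both CD4 arrays. The difference was -0.37 ± 0.13 (SE, n = 2 each; 95% interval -0.68 to -0.063). Its unadjusted limma p was 0.024 and its limma adjusted p was 0.32, which missed the threshold of 0.05. The difference of Fabp4 was -0.36 ± 0.41 (95% interval -1.30 to 0.58; limma adjusted p = 0.85), and that of Cybb was -0.13 ± 0.16 (-0.51 to 0.24; limma adjusted p = 0.86). For both genes the arrays of the 2 subsets overlapped. In this contrast 2.5% of all features were called, and none of the 3 genes was. At an unadjusted limma p under 0.05, Apoe here was the only case in the family of 9 tests. As 5068 of all 44951 features had an unadjusted limma p of at most 0.05 in this contrast, that value does not set Apoe apart.

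Under blockade, the difference between CD8 and CD4 cells was -0.11 ± 0.13 for Apoe (95% interval -0.42 to 0.19; limma adjusted p = 0.82). It was -0.41 ± 0.41 for Fabp4 (-1.34 to 0.53; limma adjusted p = 0.77) and -0.21 ± 0.16 for Cybb (-0.59 to 0.16; limma adjusted p = 0.68). The arrays of the subsets overlapped for Fabp4 and Cybb, and for Apoe the higher CD8 array, at 1.11, lay just below the lower CD4 array, at 1.13. In this contrast 2.2% of all features were called, and none of the 3 genes was among them. With quantile normalization the difference of Apoe was -0.86 ± 0.24 without blockade (limma adjusted p = 0.14), which lies below the interval given above, and -0.27 under blockade; that of Fabp4 under blockade was -0.92.

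All 6 differences between CD8 and CD4 cells were negative. Of the 81 named genes with all blockade arrays above all untreated arrays, 56 (69.1%) were lower in CD8 than in CD4 cells at both treatments and had the same order of the 4 group means as the 3 genes. Among all 2657 features with that separation the share was 32.0% (851), and of all 44951 features 29.2% were lower in CD8 than in CD4 cells at both treatments. Without CD8 blockade replicate 1 the difference of Fabp4 under blockade was 0.31, and without CD8 untreated replicate 2 that of Cybb without blockade was 0.084, so these 2 directions each rested on 1 array.

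The third comparison asked whether blockade acted on the 3 genes to a different extent in the 2 subsets. The blockade difference in CD8 cells minus that in CD4 cells was 0.26 ± 0.19 for Apoe (SE, n = 2 in each of 4 groups; 95% interval -0.18 to 0.69; limma adjusted p = 0.98). It was -0.048 ± 0.58 for Fabp4 (-1.37 to 1.28; limma adjusted p = 0.998) and -0.080 ± 0.23 for Cybb (-0.61 to 0.45; limma adjusted p = 0.998). None of the 3 passed, in a contrast in which 0.0578% of all features (26 of 44951) were called. The interval of Fabp4 is wide enough to hold a subset difference of more than 1 log2 unit in either direction. With quantile normalization the value was 0.59 for Apoe, -0.46 for Fabp4 and -0.18 for Cybb, and none passed. Leaving out 1 array at a time, the value of Fabp4 ranged from -0.77 (without CD8 blockade replicate 2) to 0.67 (without CD8 blockade replicate 1) and that of Cybb from -0.30 (without CD8 untreated replicate 2) to 0.14 (without CD8 untreated replicate 1).

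**Figure D3:**
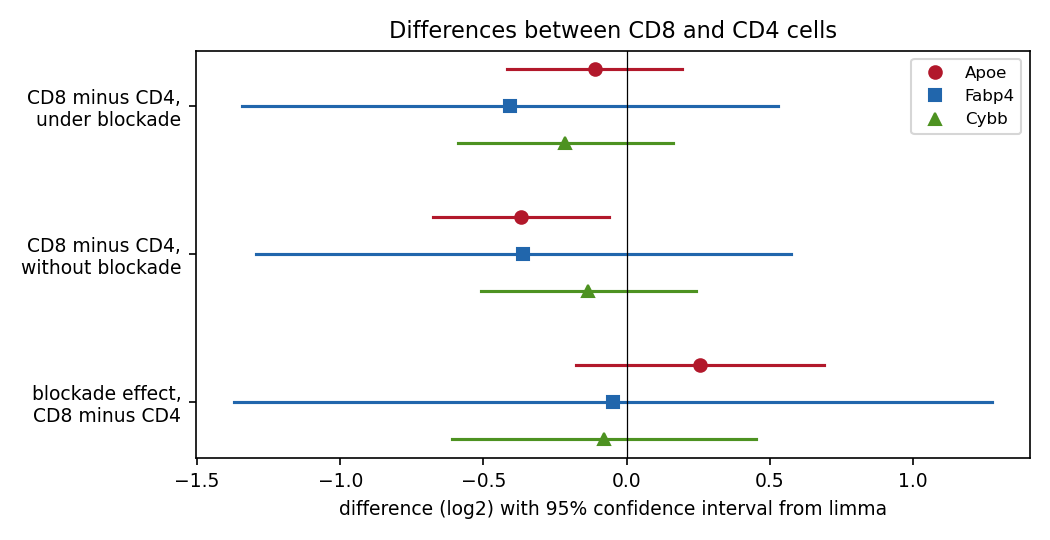
Difference between CD8 and CD4 cells (horizontal axis, log2) with its 95% confidence interval from limma, for Apoe, Fabp4 and Cybb, under blockade, without blockade, and as the blockade difference in CD8 minus that in CD4. The intervals of Fabp4 are the widest, and the interval of Apoe without blockade, from -0.68 to -0.063, alone does not include 0.

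The named genes most like each of the 3 were found by the root mean square difference of their log2 values over the 8 arrays, a measure that depends on the size of the blockade difference as well as on its pattern. Nearest to Apoe were A530030E21Rik (0.26), Il4i1 (an amino acid oxidase, 0.32), Cr2 (a complement receptor of B cells, 0.32), Fcmr (the IgM Fc receptor, 0.35) and Pik3ap1 (a B cell signalling adaptor, 0.36). Among the 5 nearest to Fabp4 were Fcer2a (the low-affinity IgE receptor, 0.30), Gpnmb (0.37), Dennd5b (0.39) and S1pr3 (a sphingosine-1-phosphate receptor, 0.39). Nearest to Cybb were Iglv1 (an immunoglobulin lambda variable segment with close relatives, 0.10), Spib (a transcription factor of B cells, 0.11), Ms4a1 (the B cell antigen CD20, 0.11), Ly86 (a partner of a Toll-like receptor homologue, 0.12) and Wdfy4 (0.12).

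The 3 genes were not among each other's nearest. Fabp4 was at rank 37 and Cybb at rank 53 of 288 in likeness to Apoe, with differences of 0.64 and 0.70. In likeness to Cybb, Fabp4 was at rank 77 and Apoe at rank 78, with differences of 0.63 and 0.70. Likeness rests largely on the direction of the blockade difference, which the list was selected on: all 20 genes nearest to each of the 3 had a higher mean under blockade. The median difference of Cybb from the 20 named B cell genes was 0.22, against 0.25 from the 80 other named genes with a higher mean under blockade. For Apoe these medians were 0.61 and 0.67, and for Fabp4 they were 0.56 and 0.59. Of the 20 genes nearest to each, 8 were B cell genes for Apoe, 8 for Fabp4 and 7 for Cybb, where B cell genes made up 25% of those 80. No closer likeness to B cell genes than to other listed genes of the same direction is read from these values. With 1 array left out at a time, 4 or 5 of the 5 nearest genes were kept for Apoe. For Fabp4 3 to 5 were kept (3 without CD8 blockade replicate 2), and for Cybb 3 to 5 (3 without CD4 untreated replicate 1).

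**Figure D4:**
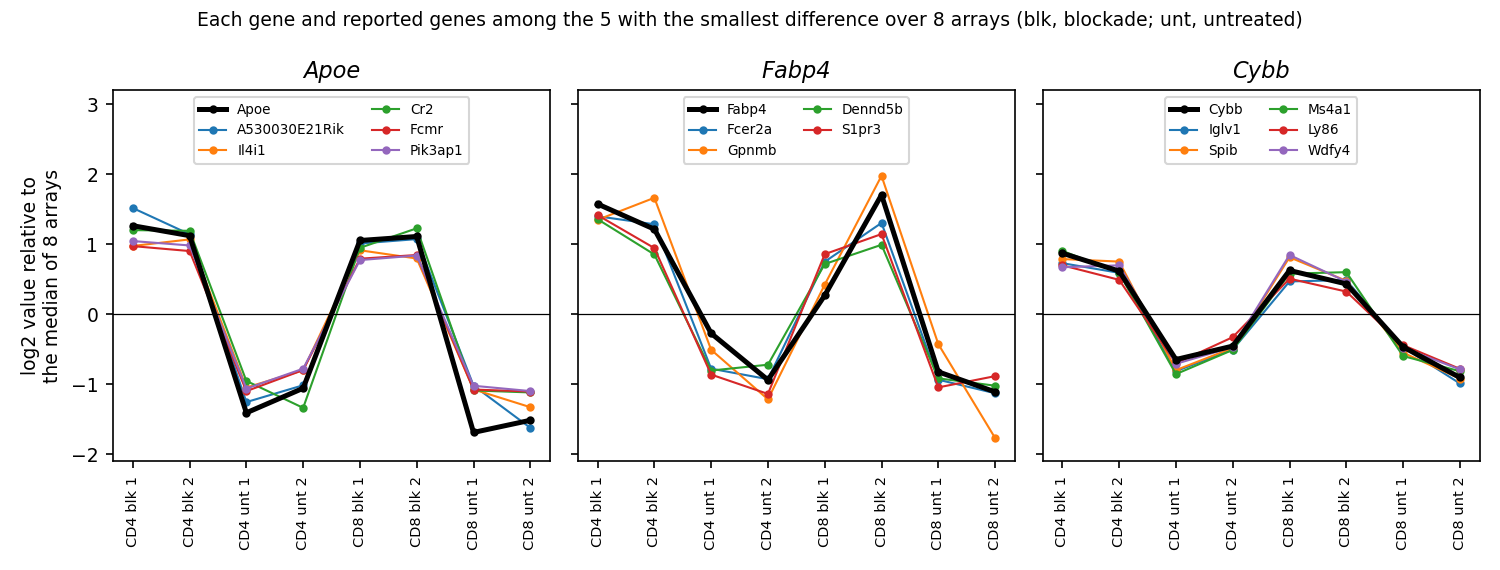
Log2 value relative to the median of 8 arrays (vertical axis) on each array (horizontal axis) for Apoe, Fabp4 and Cybb (black) and genes among the 5 nearest to each by root mean square difference (colours; 4 are drawn for Fabp4). Cybb and its neighbours differ by 0.10 to 0.12, and in the Fabp4 panel Fabp4 and Gpnmb lie lowest, at 0.27 and 0.42, on CD8 blockade replicate 1.

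Few other genes of the same roles could be named, and all come from the list selected on the blockade contrast. Neither their directions nor which of them passed limma's threshold is therefore independent evidence. Among 36 lipid-handling genes only Apoe and Fabp4 had a name, and among 16 genes of the NADPH oxidase family only Cybb. Of 52 further macrophage genes 3 were named, and by limma's adjusted p 2 of 3 fell in CD4 cells and 1 of 3 fell in CD8 cells, while the others did not pass (of all features, 2.02% were called lower in CD4 cells and 1.14% in CD8 cells). Their median was -2.01 in CD4 cells and -1.51 in CD8 cells. Gpnmb lay at 2.37 ± 0.54 in CD4 cells and 2.30 ± 0.54 in CD8 cells (SE) without passing. Ccl6, a chemokine of myeloid cells, fell by 3.47 ± 0.41 in CD4 cells and fell by 3.26 ± 0.41 in CD8 cells. Ccl9, another chemokine of macrophages, fell by 2.01 ± 0.42 in CD4 cells and lay at -1.51 ± 0.42 in CD8 cells without passing. Without the arrays of CD8 blockade replicate 1 and CD4 untreated replicate 2, whose control probe sets were the highest and lowest, the differences of Ccl6 and Ccl9 kept their direction but did not pass.

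The levels of other cell types' genes are given beside those of the 3 genes as a description, since genes have names here only if they were listed for their blockade difference on these arrays. Of all 289 named genes, 77 were called higher and 198 lower in CD4 cells, and 75 higher and 172 lower in CD8 cells, so nothing is read from how many genes of a list passed. All 20 named genes of a 35-gene B cell list rose in CD4 cells and all 20 in CD8 cells (1.39% and 0.785% of all features were called higher), with medians of 1.58 and 1.40. Pou2af1, with 0.88 in CD8 cells, had the lowest value and Cr2, with 2.34 in CD4 cells, the highest. The mean log2 value of these 20 genes was 0.67 to 0.90 on the blockade arrays and -0.85 to -0.72 on the untreated arrays. Of 8 named MHC class II presentation genes 7 rose and Cd86, a costimulatory ligand, fell in each subset, with medians of 1.46 in CD4 cells and 1.46 in CD8 cells. H2-Ab1, a chain of the class II molecule I-A, rose by 1.70 ± 0.11 in CD4 cells and 1.64 ± 0.11 in CD8 cells, and Cd74, the invariant chain, rose by 1.43 ± 0.099 in each. Without the 2 arrays with the highest and lowest control probe sets, 20 of the 20 B cell genes passed in CD4 cells and 14 in CD8 cells, and of the class II list 7 and 6 genes rose and Cd86 did not pass; no direction changed.

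The named genes of the neutrophil list and of the mast cell and basophil list had the other direction, and the same limit holds for their counts. Of 10 named neutrophil genes 7 fell and 3 did not pass in CD4 cells, and 6 fell and 4 did not pass in CD8 cells, with medians of -2.28 and -2.56. S100a8, the partner of S100a9 in calprotectin, fell by 3.91 ± 0.34 in CD4 cells and fell by 3.49 ± 0.34 in CD8 cells, and Ctsg, a granule protease, fell by 2.91 ± 0.12 and in CD8 cells fell by 2.98 ± 0.12. The mean log2 value of the 10 genes was -1.40 to -0.91 on the blockade arrays and 0.93 to 1.73 on the untreated arrays. Of 5 named mast cell and basophil genes 5 fell in CD4 cells and 4 in CD8 cells; the largest difference was that of Cpa3, mast cell carboxypeptidase, which fell by 4.17 ± 0.20 in CD4 cells and fell by 5.23 ± 0.20 in CD8 cells. Without the 2 arrays with the highest and lowest control probe sets, Ltf and Ms4a2 did not pass in CD4 cells, which left 6 neutrophil genes and 4 mast cell and basophil genes that fell. The mean of the 5 mast cell and basophil genes was -1.62 to -1.36 on the blockade arrays and 1.35 to 2.07 on the untreated arrays. Of 15 dendritic cell genes Bst2 and Fscn1 were named, and both fell in each subset, where Bst2 fell by 2.10 and Fscn1 fell by 3.87 in CD4 cells. None of 14 erythroid genes was named. The part of cells other than T cells in the values of Apoe, Fabp4 and Cybb was not tested.

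**Figure D5:**
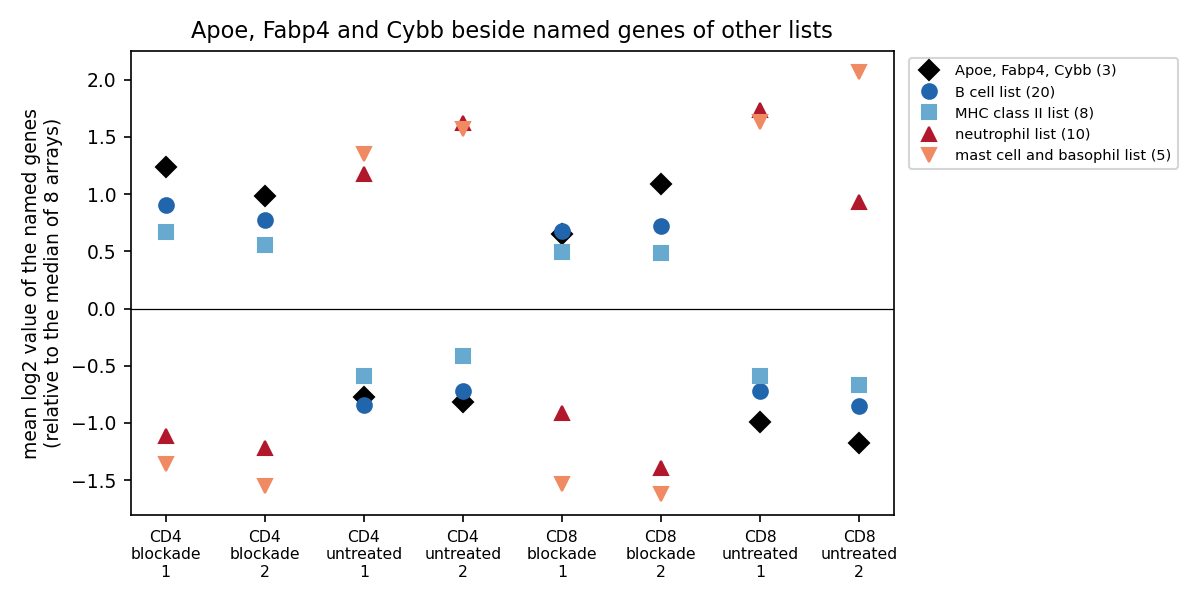
Mean log2 value relative to the median of 8 arrays (vertical axis) of Apoe, Fabp4 and Cybb and of the named genes of 4 other lists on each array (horizontal axis, by group and replicate). The 3 genes, the B cell list and the MHC class II list lie above 0 on all blockade arrays and below 0 on all untreated arrays, and the neutrophil list and the mast cell and basophil list lie below 0 on all blockade arrays and above 0 on all untreated arrays.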

How the data were processed

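The log2 values were deposited as a table of 45101 probe sets (64 of them controls) on 8 Mouse430_2 arrays, and the authors had expressed each relative to its row's median (largest row median 5e-07). The sources used here give neither the normalization nor the summary method nor the log base; log2 was read from the layout of the deposited list. That list held 409 probe sets with values equal to those of the table and, per the file headers, came from an unpaired t-type comparison with a corrected p-value cutoff of 0.05 and no condition pair filled in. Of these, 375 had 1 gene, 22 several and 12 none. A RefSeq table held the Entrez identifiers of 369 (GRCm38.p6, used for names), and 33 symbols were updated.

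Averaging the listed probe sets of each gene left 44951 features. A mean per group was fitted over all 8 arrays in limma 3.58.1 (R 4.3.3) with eBayes (4 residual and 4.48 prior degrees of freedom). Tests were two-sided, and p-values were adjusted by Benjamini-Hochberg over all features of a contrast, with a threshold of 0.05. Intervals are 95%. The number of arrays limits the precision, and no depth, detection call or batch label was available for use. Genes were named by a rule: Apoe, Fabp4 and Cybb, the 5 named genes nearest to each, and named members of the lists; 1 of the genes nearest to Fabp4 is not reported here. The 3 genes and all lists were chosen with earlier results of these data known. Alternatives were quantile normalization, array weights, fits of the compared arrays alone, single probe sets, robust eBayes, a replicate block and leaving out arrays.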

Additional observations from a re-analysis of the deposited data

How the results depend on the processing

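All 90 blockade differences of Apoe, Fabp4 and Cybb computed under alternatives were above 0, and none of 132 tested differences passed (limma adjusted p 0.12 to 1.00). Except with quantile normalization, the sign of the blockade differences was fixed, because every blockade array lay above every untreated array for each gene. With quantile normalization the blockade difference was 2.89 for Apoe and 2.60 for Fabp4 in CD4 cells and 3.48 for Apoe in CD8 cells, and 16 features were called for the difference of effects, against 26. With only the arrays compared, 453 features were called for blockade in CD8 cells (867 with all arrays) and 628 for CD8 minus CD4 under blockade (990 with all arrays). With probe set 1436779_at alone the difference of effects of Cybb was 0.065, against -0.080. Without both arrays with unusual control probe sets, the blockade difference was 2.60 for Apoe in CD4 cells and 2.67 for Fabp4 in CD8 cells, and Fabp4 stood at 0.31 for CD8 minus CD4 under blockade and at 1.00 for the difference of effects. Features called there were 531 for blockade in CD4 cells (1529 with all arrays), 275 in CD8 cells, 460 for CD8 minus CD4 without blockade (1123 with all arrays), 392 under blockade, and 0 by limma for the difference of effects (2113 at an unadjusted p under 0.05). Fits that leave out arrays also rest on fewer of them, and why values moved was not tested.

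Without 1 array at a time, the blockade difference in CD4 cells ranged from 2.25 to 2.60 for Apoe, 1.67 to 2.33 for Fabp4 and 1.17 to 1.42 for Cybb. In CD8 cells it ranged from 2.60 to 2.77, 1.24 to 2.67 and 1.00 to 1.43. CD8 minus CD4 without blockade ranged from -0.54 to -0.19, -0.69 to -0.027 and -0.35 to 0.084, and under blockade from -0.18 to -0.041, -1.13 to 0.31 and -0.34 to -0.087. The difference of effects ranged from 0.082 to 0.43, -0.77 to 0.67 and -0.30 to 0.14. Features called ranged from 666 to 1413 for blockade in CD4 cells, 411 to 773 in CD8 cells, 551 to 1070 for CD8 minus CD4 without blockade, 505 to 884 under blockade and 5 to 26 for the difference of effects.

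The groups share replicate numbers, but same-numbered arrays did not deviate together (correlation of replicate differences over all features between -0.030 and 0.077), so the numbers were not taken as pairs. A replicate block cannot change a group difference in this balanced layout, so the blockade difference of Apoe in CD4 cells stayed at 2.43. With the block, 1389 features were called for blockade in CD4 cells, 803 in CD8 cells and 22 for the difference of effects. No call of the 3 genes changed. Signal over background could not be assessed from centred values. The likeness without 1 array at a time and the list counts without both arrays were chosen after seeing the data.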
